A study of Mus musculus with 12 samples.

Results

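The liver stores glucose as glycogen after a meal and, between meals, releases it again and makes new glucose from lactate, glycerol and amino acids. In gluconeogenesis, pyruvate carboxylase (Pcx) turns pyruvate into oxaloacetate, phosphoenolpyruvate carboxykinase (Pck1) turns that into phosphoenolpyruvate, fructose-1,6-bisphosphatase (Fbp1) acts further up the chain, and the catalytic subunit of glucose-6-phosphatase (G6pc) frees glucose at the last step. Slc2a2 encodes GLUT2, the transporter that carries glucose across the hepatocyte membrane in both directions, and Pklr encodes liver pyruvate kinase, the enzyme that closes glycolysis. Gys2 is the liver glycogen synthase, Pygl the liver glycogen phosphorylase, and Ppp1r3c a subunit that brings protein phosphatase 1 to glycogen. Pck1 and G6pc are textbook targets of glucagon and of repression by insulin, and activators of the nuclear receptor CAR are known to lower both in mouse liver.

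These 9 genes were taken by symbol from the gene column of the variance-stabilised table and joined by Ensembl identifier to the count table. All 9 were found among its 51912 genes, and all 9 were among the 8594 genes that passed edgeR's filter on low counts.

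Liver RNA of 12 adult male mice on a C57BL/6NTac background was measured in 4 groups of 3. One group was WT given the vehicle, corn oil. The others, WT, Car KO/hPXR and hCAR/hPXR, received CITCO, an activator of human CAR that may also act on human PXR, at 10 mg/kg per the labels. The study's methods name this dose and a higher one for the short-term treatment. Injections were intraperitoneal and daily for 4 days, and the livers were taken on day 5. The hCAR/hPXR mice carry human CAR and PXR in place of the mouse receptors, and in Car KO/hPXR mice Car is deleted while human PXR stands in for mouse Pxr. Vehicle was given to WT mice in these libraries, so a response to CITCO in the humanised mice and the genotype itself cannot be told apart. Mice had free access to food, and the hour of killing is not given in the sources used here. Sequencing started from the poly(A) end of transcripts, so reads come mainly from that end, and levels are compared between groups here, not between genes.

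The libraries held between 1167027 and 2341572 counts. Levels are given as CPM, in which the counts of each library are scaled to the same total after TMM normalisation. Mouse Nr1i3 (CAR) lay between 73.3 and 146 CPM in the WT libraries, between 0 and 5.00 CPM in hCAR/hPXR and between 1.67 and 4.11 CPM in Car KO/hPXR libraries, and Cyp2b10, a classical CAR target, lay between 146 and 167 CPM in hCAR/hPXR libraries and at or below 4.15 CPM in the other 9. The summed level of 5 hepatocyte markers was 19282 and 20696 CPM in hCAR/hPXR replicates 1 and 2 and between 25715 and 35145 CPM in the other 10 libraries, against 12.7 to 27.5 CPM for 5 cholangiocyte markers. In this bulk tissue, fewer cells of a type and less RNA per cell cannot be told apart. WT CITCO replicate 3 differed from the other WT CITCO libraries in the summed level of 10 acute phase genes. These encode plasma proteins that the liver makes in inflammation. The sum was 6539 CPM in replicate 3, against 14292 and 11681 CPM in replicates 1 and 2 and 6217 to 7117 CPM with corn oil.

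In GRCm38 the genes lie on 7 chromosomes: G6pc at chr11:101367561-101377903, Pck1 at chr2:173153048-173159273, Fbp1 at chr13:62864753-62888282, Pcx at chr19:4510472-4621752, Slc2a2 at chr3:28697903-28731359, Pklr at chr3:89136142-89146784, Gys2 at chr6:142422613-142473109, Pygl at chr12:70190811-70231488 and Ppp1r3c at chr19:36731731-36736653. Fbp1, Gys2, Pygl and Ppp1r3c are on the minus strand and the others on the plus strand. Of the genes that overlap a member on the opposite strand, 3 were listed at no more than 3 counts in any library. The exception is Hcn3, which shares 711 bases with Pklr, its 3' end included, and had 30 to 136 counts, and the counting is not stated to use strand, so Pklr and Hcn3 reads may not be fully separated.

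RefSeq promoters of the GRCm38.p6 build matched 8 of the 9 genes. RefSeq starts are not always those of the positions above, so some windows, those of G6pc and Pygl among them, reach into the genes as positioned there. The 250 bases before each start were searched on both strands for ACGTCA, the core of the cAMP response element, TGTTTAC, a forkhead core, TGTTTTG, a core of the insulin response element, and AGGTCA, the motif that nuclear receptors bind alone or as a pair. The promoter of Slc2a2, the gene whose difference between groups passed the test, is printed whole, since it shows AGGTCA (capitals) 21 to 16 bases before the start, on the plus strand at chr3:28697653-28697902:
Slc2a2: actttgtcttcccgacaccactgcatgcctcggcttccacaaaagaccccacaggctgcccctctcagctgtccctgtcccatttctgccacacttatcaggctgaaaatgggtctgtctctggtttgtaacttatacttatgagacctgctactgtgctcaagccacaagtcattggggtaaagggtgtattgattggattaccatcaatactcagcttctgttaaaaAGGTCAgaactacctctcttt
For Pck1 and G6pc, the hormone-responsive pair, 30 bases around each match are printed from the plus strand, at chr2:173152970-173152999, chr11:101367531-101367560 and chr11:101367650-101367679, with ACGTCA in capitals for Pck1, and for G6pc first TGTTTTG and then TGACCT, which reads AGGTCA on the opposite strand:
Pck1: ggcctgccccttACGTCAgaggcgagcctc
G6pc, insulin response core: ttttgtgtgccTGTTTTGctattttacgta
G6pc, receptor motif: tcagggctggatTGACCTacagactgaatc
The cAMP core was found in 1 of the 8 genes (6.47% of 32851 promoters), the insulin response core in 1 (5.56%), AGGTCA in 4, which also include Pklr and Pygl (14% of promoters), and the forkhead core in 0 (3.17%). A match describes these letters and not a site in use.

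Among the 9 genes, Slc2a2 was the member with the clearest difference between groups, and under CITCO it was lower with human CAR than without CAR. It was measured at 202, 245 and 233 CPM in the hCAR/hPXR libraries and at 363, 331 and 435 CPM in the Car KO/hPXR libraries. WT mice had 278, 342 and 373 CPM with CITCO and 336, 306 and 366 CPM with corn oil. All 3 hCAR/hPXR libraries thus lay below the lowest of the other 9 libraries, a pattern found in 0.954% of the genes tested. The 2 groups compared did not overlap, nor did they in 15.1% of the genes tested. The hCAR/hPXR mean was 226 ± 22.3 CPM and the Car KO/hPXR mean 376 ± 53.6 CPM (SD, n = 3), a log2 fold change of -0.73 ± 0.16 (SE), or 1.66-fold lower (edgeR quasi-likelihood test with Benjamini-Hochberg adjustment over all genes tested, adjusted p = 0.0412).

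A gene was called at an adjusted p under 0.05 with a fold change over 1.5. Between Car KO/hPXR and hCAR/hPXR mice, 0.582% of all genes tested were called in either direction, and Slc2a2 was the 1 called member of 9. The call was close to the threshold: with only these 6 libraries in the fit the edgeR adjusted p was 0.0567, and it was between 0.0578 and 0.237 without any 1 of hCAR/hPXR replicates 1, 2 and 3 and Car KO/hPXR replicates 1 and 3. It held without Car KO/hPXR replicate 2 (0.0437) and by DESeq2 (0.000529), and the log2 fold change stayed between -0.82 and -0.62 over the left-out libraries. An exact permutation test of 3 against 3 libraries cannot give a two-sided p below 0.1, the value found here.

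Against WT CITCO, Slc2a2 in hCAR/hPXR mice had a log2 fold change of -0.55 ± 0.16 with no overlap of libraries, which 13.6% of tested genes showed, and was not called by edgeR (adjusted p = 0.213). DESeq2 gave an adjusted p of 0.0247 at a log2 fold change of -0.57, which is under the 1.5-fold minimum. WT CITCO and WT corn oil differed by -0.02 on the log2 scale (95% interval -0.35 to 0.31), and Car KO/hPXR and WT CITCO by 0.18 (-0.15 to 0.52). From the highest to the lowest mean, the order was therefore Car KO/hPXR, WT corn oil, WT CITCO and hCAR/hPXR. Of the neighbours in this order, Car KO/hPXR and WT corn oil were not compared, and the other pairs were not called.

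Values of other gene lists stood beside this difference. The hepatocyte markers, which summed lowest in hCAR/hPXR replicates 1 and 2, were lower in 3 of 5 genes and higher in 2 against Car KO/hPXR, with a median log2 fold change of -0.14 and 0 called. Replicate 3, with the highest hepatocyte sum of the 12 libraries, had 233 CPM of Slc2a2. Red blood cell markers were lower in 5 of 5 genes, with a median of -0.34 against Car KO/hPXR and -0.54 against WT CITCO, and 0 called in either. The summed level of 10 fasting and PPARa genes was 1656 to 2061 CPM in hCAR/hPXR libraries and at least 2210 CPM in the other 9. Against Car KO/hPXR, 6 of its 10 genes were lower and 4 higher, with a median log2 fold change of -0.09 and 0 called. The summed level of 14 circadian clock and output genes was 583, 794 and 597 CPM in hCAR/hPXR and 870, 881 and 1133 CPM in Car KO/hPXR libraries. In that list Dbp, a clock-controlled transcription factor, was lower in hCAR/hPXR mice (log2 fold change -0.96, edgeR adjusted p = 0.0390), and 10 of 12 tested genes were lower, with a median log2 fold change of -0.40 against 0.01 for all genes. Nr1d1, a clock repressor, was the 1 gene of the list called elsewhere, higher in Car KO/hPXR than in WT CITCO libraries (1.66, edgeR adjusted p = 0.0298). The acute phase list was higher in all 10 genes, with Saa2, Orm2 and Hp called. The 7 Kupffer cell markers summed to 331 to 418 CPM in hCAR/hPXR and 296 to 315 CPM in Car KO/hPXR libraries, but 4 were higher and 3 lower, with a median log2 fold change of 0.03 and 0 called. The part of these lists in the Slc2a2 difference was not tested.

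**Figure D1:**
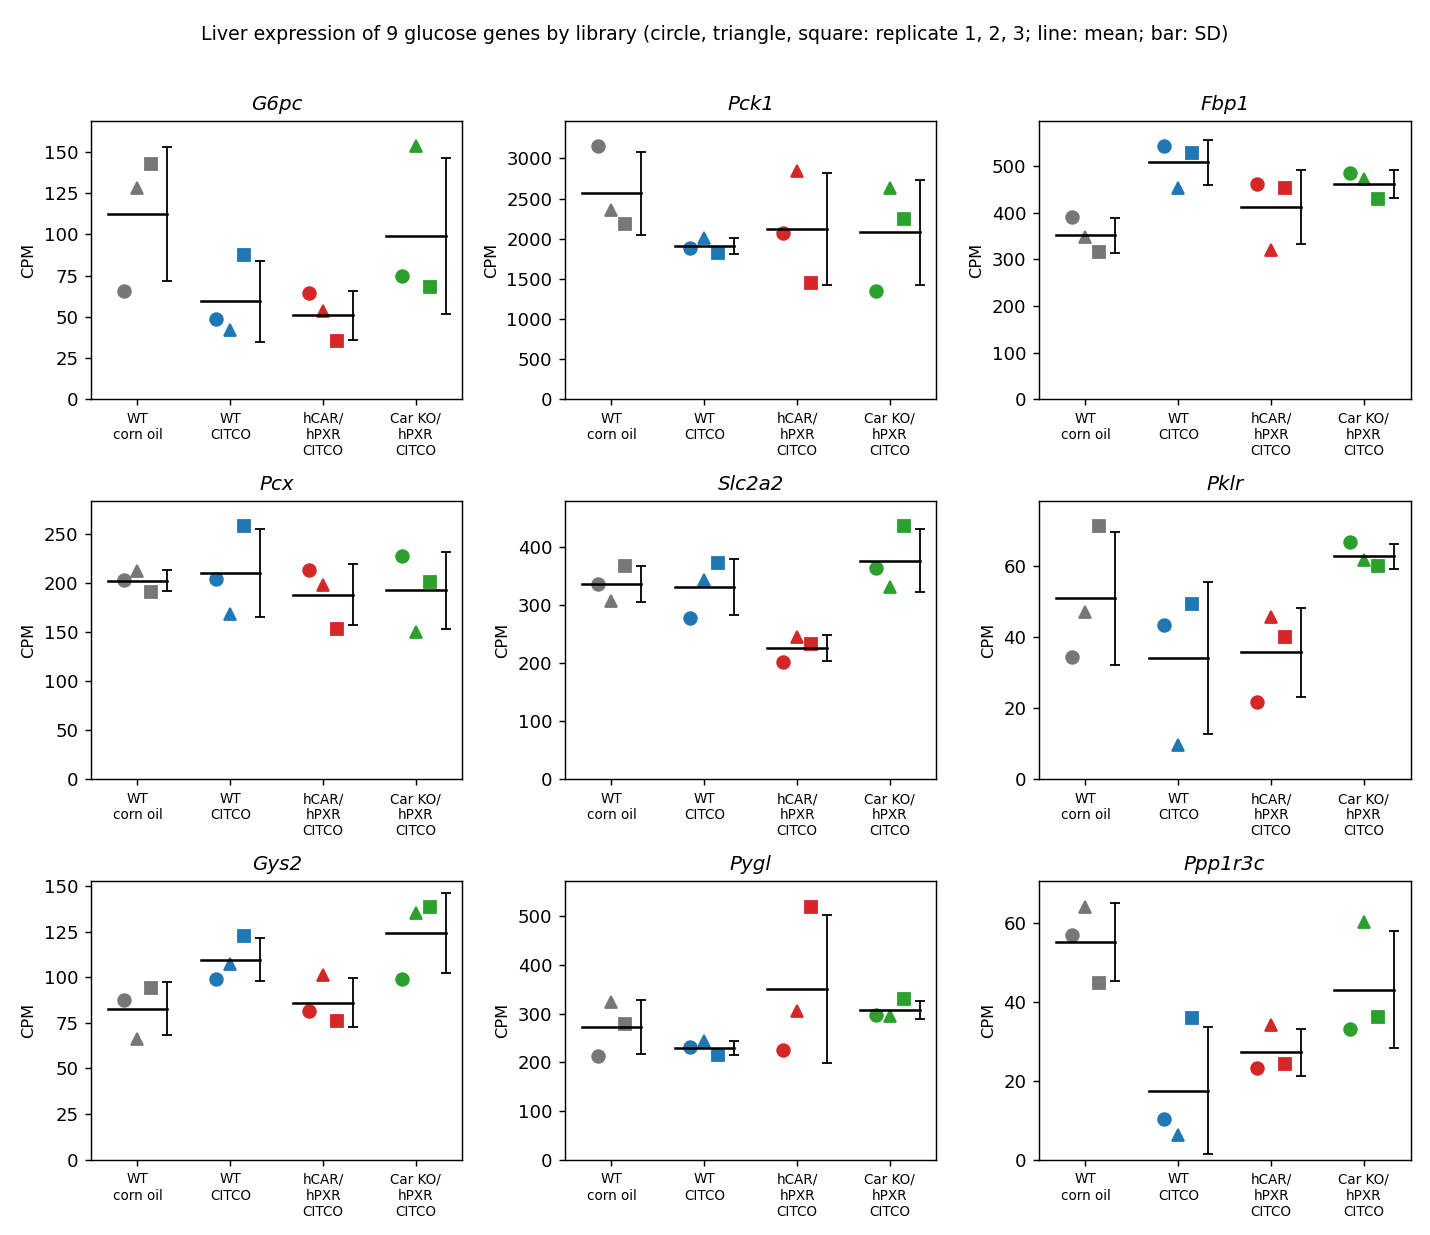
Level of each of the 9 genes in CPM (linear axis from 0) in the 12 libraries, by group; markers are replicates 1, 2 and 3, lines are means and bars SD (n = 3). The 3 hCAR/hPXR points of Slc2a2 (202 to 245 CPM) lie below all others, and Ppp1r3c is lowest in WT CITCO replicates 1 and 2 (10.4 and 6.22 CPM).

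Of the gluconeogenic enzymes, G6pc was the most variable. It was at 65.8, 128 and 142 CPM in WT mice given corn oil and at 48.7, 42.2 and 87.2 CPM in WT mice given CITCO. The hCAR/hPXR libraries had 64.2, 53.2 and 35.0 CPM and the Car KO/hPXR libraries 75.0, 154 and 68.2 CPM. Every hCAR/hPXR library was thus below every Car KO/hPXR library, in groups that also did not overlap in 15.1% of tested genes, while WT CITCO overlapped with corn oil through replicate 3.

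For G6pc the log2 fold change was -0.91 ± 0.34 in WT CITCO against WT corn oil (edgeR adjusted p = 0.381), -0.93 ± 0.35 in hCAR/hPXR against Car KO/hPXR (0.317), 0.73 ± 0.35 in Car KO/hPXR against WT CITCO (0.532) and -0.20 ± 0.35 in hCAR/hPXR against WT CITCO (0.911). None of the 4 was called by edgeR. The 95% intervals of the first and the second, unadjusted for the number of genes, were -1.63 to -0.20 and -1.66 to -0.21. Without the filter on low counts, both were called (edgeR adjusted p = 0.00222 and 0.00258). That fit called 179 and 233 genes in these comparisons, against 20 and 50 with the filter. Under the other 11 of 12 alternatives neither was called.

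Pck1 was the most deeply counted member, with 1732 to 7043 counts a library. It stood at 3154, 2354 and 2183 CPM with corn oil and at 1887, 2012 and 1819 CPM in WT mice given CITCO. These groups did not overlap, as in 14.7% of tested genes, and the log2 fold change of -0.43 ± 0.25 was not called (edgeR adjusted p = 0.643). The hCAR/hPXR libraries held 2067, 2842 and 1445 CPM and the Car KO/hPXR libraries 1351, 2634 and 2246 CPM. The spread within each humanised group covered the whole WT CITCO range, and the hCAR/hPXR and Car KO/hPXR means differed by 0.03 on the log2 scale (95% interval -0.50 to 0.56).

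Fbp1 went the other way from G6pc and Pck1 in WT mice. It was at 543, 453 and 528 CPM with CITCO and at 391, 348 and 316 CPM with corn oil, all CITCO libraries being higher. These groups did not overlap in 14.7% of tested genes, without regard to direction. The log2 fold change was 0.53 ± 0.16, or 1.44-fold, and was not called (edgeR adjusted p = 0.275). The hCAR/hPXR libraries, at 462, 319.9 and 453 CPM, overlapped with both WT groups, and the Car KO/hPXR libraries had 485, 473 and 429 CPM.

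Pcx showed the smallest differences, with fold changes on the log2 scale between -0.15 and 0.05. It was at 203, 212 and 191 CPM with corn oil and at 204, 169 and 257 CPM in WT mice given CITCO. The humanised groups had 213, 197 and 153 CPM (hCAR/hPXR) and 227, 149 and 200.4 CPM (Car KO/hPXR). The 4 groups overlapped, and the 95% interval of the farthest difference, between hCAR/hPXR and WT CITCO, ran from -0.55 to 0.24.

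Of the genes that handle glycogen, Ppp1r3c had the largest fold change, between the WT groups. It was at 56.9, 64.2 and 44.7 CPM with corn oil and at 10.4, 6.22 and 35.9 CPM with CITCO, from 16, 9 and 51 counts. All 3 CITCO libraries were lower, in groups that did not overlap in 14.7% of tested genes, without regard to direction. Replicate 3 was closer to corn oil than to the other CITCO libraries. The mean was 3.17-fold lower, a log2 fold change of -1.66 ± 0.41 that edgeR did not call (adjusted p = 0.138) and DESeq2 did (adjusted p = 0.0447). Without WT CITCO replicate 3 the log2 fold change was -2.71 and edgeR called it (adjusted p = 0.000942), in a fit that called 54 genes against 20 with all libraries. Over the left-out libraries it ran from -2.71 to -1.255, and 9 of 12 alternatives did not call it.

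The 2 WT CITCO libraries with the least Ppp1r3c were those with the higher acute phase sums given above, and they also held more of the 7 Kupffer cell markers (391 and 367 CPM, against 251 CPM in replicate 3 and 216 to 288 CPM with corn oil). Of these markers 6 of 7 were higher in WT CITCO than with corn oil, with a median log2 fold change of 0.44 and 0 called. In the acute phase list Saa1 and Saa2 were called between WT CITCO and corn oil, 8 of 10 genes were higher, and the median log2 fold change was 1.80. The part of these genes in the Ppp1r3c values was not tested. The hCAR/hPXR libraries, whose acute phase sums were 11613 to 27090.5 CPM, had Ppp1r3c at 23.3, 34.1 and 24.2 CPM, above WT CITCO replicates 1 and 2 and below replicate 3. Against WT CITCO the log2 fold change was 0.65 ± 0.43 (edgeR adjusted p = 0.717). It was 1.70 without WT CITCO replicate 3 (edgeR adjusted p = 0.0703), 0.37 without replicate 1 and 0.24 without replicate 2, none of them called. The paper, which used DESeq2, lists Ppp1r3c among the genes higher in hCAR/hPXR than in WT mice under CITCO. The fold change it prints is larger than the 1.57-fold of the main edgeR fit here and near that without WT CITCO replicate 3. The part of this library in the difference from the paper was not tested. In the DESeq2 fit used here Ppp1r3c was not called in hCAR/hPXR against WT CITCO. The Car KO/hPXR libraries had 33.0, 60.1 and 36.1 CPM, a mean of 43.1 CPM against 17.5 CPM in WT CITCO (95% interval of the log2 fold change 0.41 to 2.18, edgeR adjusted p = 0.258). Without WT CITCO replicate 3 this difference was 2.35 on the log2 scale and was called (edgeR adjusted p = 0.00432), in a fit that called 58 genes against 22 with all libraries. Over the left-out libraries the difference ran from 0.89 to 2.35, and 10 of 12 alternatives did not call it.

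Gys2, the synthase, was higher in WT mice given CITCO (99.2, 107 and 122 CPM) than in those given corn oil (87.8, 66.3 and 94.2 CPM) in every library. These groups did not overlap in 14.7% of tested genes, without regard to direction. The log2 fold change of Gys2 was 0.40 ± 0.19 and was not called (edgeR adjusted p = 0.535). It was at 81.3, 101 and 75.9 CPM in hCAR/hPXR and at 99.1, 135 and 139 CPM in Car KO/hPXR libraries. These humanised groups overlapped by 1 library each, with a log2 fold change of -0.52 ± 0.19 (edgeR adjusted p = 0.291).

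Pygl, the enzyme that breaks glycogen down, was at 213, 324 and 279.5 CPM with corn oil and at 231, 244 and 215 CPM in WT mice given CITCO. In hCAR/hPXR mice it was at 225, 306 and 520.5 CPM, the last value being the highest of the 12 libraries. The log2 fold change over WT CITCO was 0.60 ± 0.23 (edgeR adjusted p = 0.423) and was 0.20 without that library. The Car KO/hPXR libraries, at 298, 296 and 329 CPM, were all above WT CITCO, as in 14.2% of tested genes without regard to direction, at a log2 fold change of 0.42 ± 0.23 (edgeR adjusted p = 0.602).

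Pklr, on the side of glucose use, was most even in Car KO/hPXR mice, at 66.7, 61.8 and 60.0 CPM. It was at 43.5, 9.68 and 49.2 CPM in WT mice given CITCO, at 21.8, 45.7 and 40.0 CPM in hCAR/hPXR mice and at 34.5, 47.2 and 71.2 CPM with corn oil. The Car KO/hPXR libraries lay above those of WT CITCO and of hCAR/hPXR mice, pairs of groups that did not overlap in 14.2% and 15.1% of tested genes, and WT CITCO replicate 2, with 14 counts, was the lowest of the 12. The log2 fold change was 0.88 ± 0.39 for Car KO/hPXR over WT CITCO (edgeR adjusted p = 0.501) and -0.82 ± 0.39 for hCAR/hPXR against Car KO/hPXR (0.463). Between hCAR/hPXR and WT CITCO the log2 fold change was 0.05, and it turned to -0.40 without WT CITCO replicate 2, with neither value called.

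**Figure D2:**
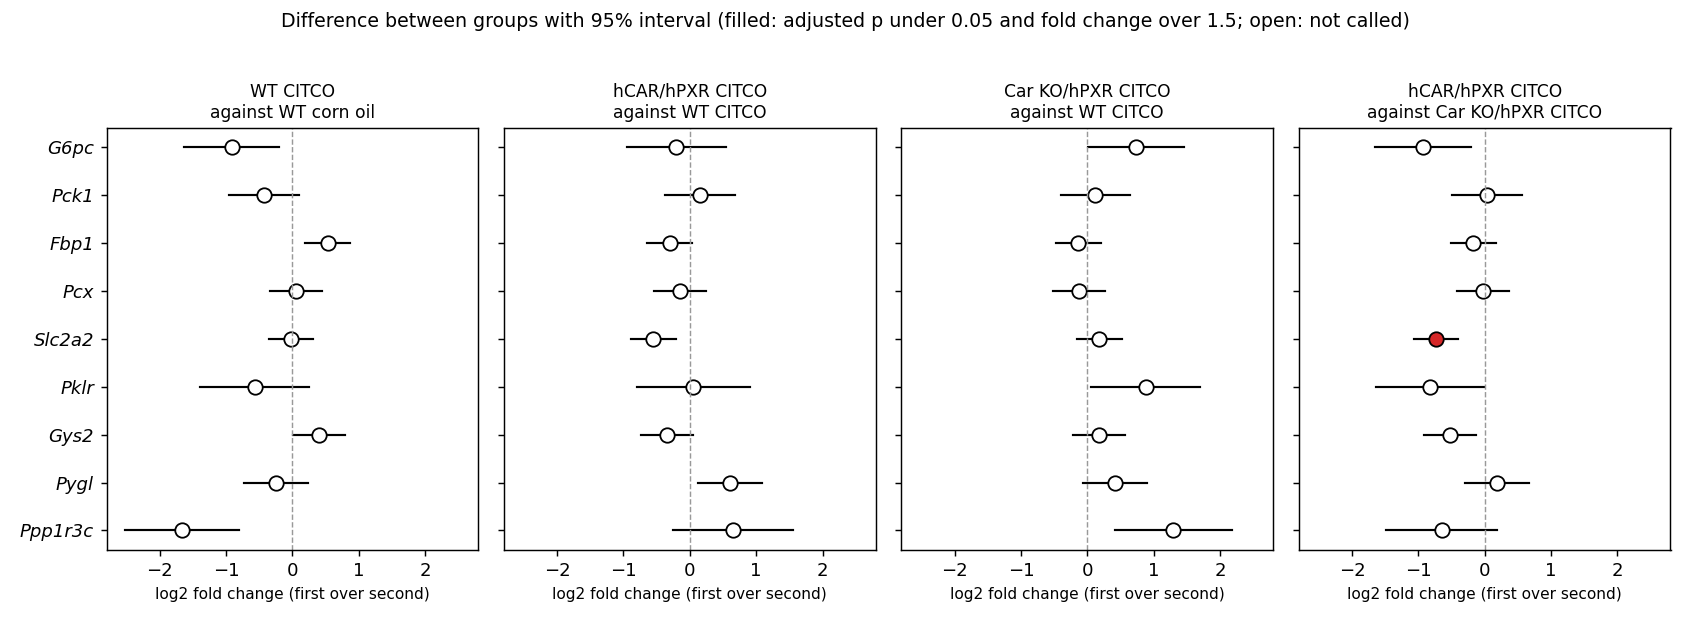
Log2 fold change of each gene, with its 95% interval from edgeR's quasi-likelihood fit, in the 4 comparisons; the filled point is called (adjusted p under 0.05 and fold change over 1.5). Slc2a2 in hCAR/hPXR against Car KO/hPXR mice (-0.73) is the filled point, and Ppp1r3c in WT CITCO against corn oil (-1.66) lies farthest from 0.

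Counted together, 0 of the 9 genes were called between WT CITCO and WT corn oil (0.233% of all genes tested were), 0 between hCAR/hPXR and WT CITCO (0.407%), 0 between Car KO/hPXR and WT CITCO (0.256%) and 1 between hCAR/hPXR and Car KO/hPXR. DESeq2 called 1 of them, Ppp1r3c, in the WT comparison, and 0 of them in both comparisons with WT CITCO. At an unadjusted p under 0.05 by edgeR there were 4, 2, 3 and 4 of 9 in the same order, while 9.13%, 8.81%, 9.30% and 10.6% of all genes were. The 4 in WT mice were G6pc and Ppp1r3c, lower with CITCO (4.61% of all genes were at this p and lower), and Fbp1 and Gys2, higher with CITCO (4.53%). The 4 between Car KO/hPXR and hCAR/hPXR were G6pc, Slc2a2, Pklr and Gys2, and all were lower in hCAR/hPXR (5.03% of all genes).

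The median log2 fold change of the 9 genes was -0.24, -0.15, 0.18 and -0.52 in the same order, and the median of all genes lay between -0.00395 and 0.0133. In hCAR/hPXR mice 7 of 9 were lower than in Car KO/hPXR mice (48.5% of all genes), Pck1 and Pygl being the others. Against WT CITCO, 5 of 9 were lower in hCAR/hPXR mice and 2 of 9 in Car KO/hPXR mice. In WT CITCO against WT corn oil 6 of 9 were lower. These comparisons share groups, so their values are not independent of each other. In the test of any difference among the 4 groups, 1.42% of all genes had an adjusted p under 0.05 and 0 of the 9 genes did by edgeR, with Slc2a2 nearest (0.0855), then Ppp1r3c (0.136) and G6pc (0.231). At an unadjusted p under 0.05 there were 5 of 9, against 11.6% of all genes. DESeq2's likelihood ratio test called Slc2a2 (adjusted p = 0.00127) and Ppp1r3c (0.0277).

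**Figure D3:**
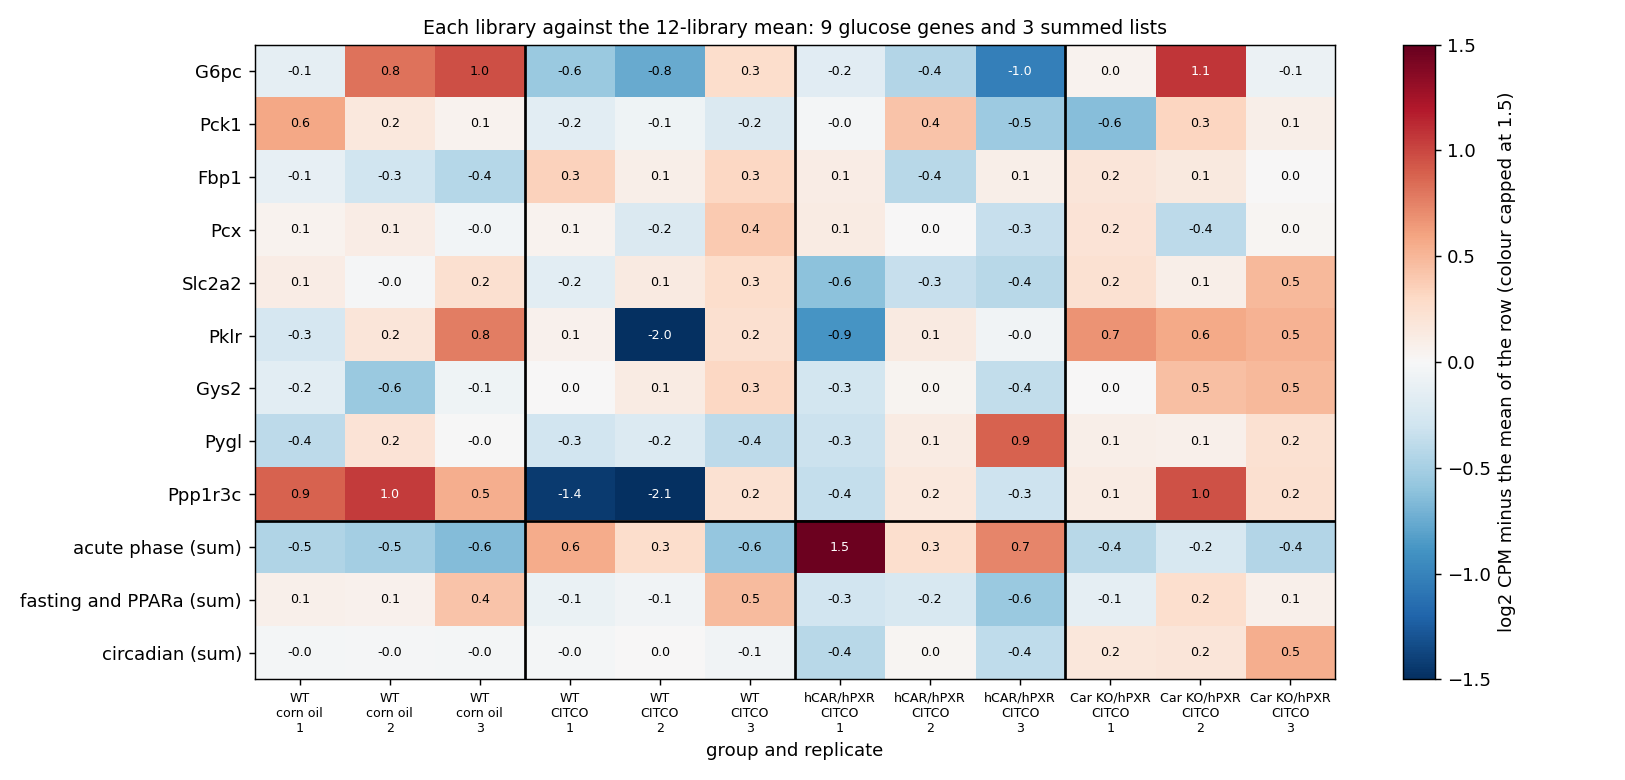
Log2 CPM of the 9 genes, and of the summed acute phase, fasting and circadian lists, minus the mean of the row over 12 libraries (columns, by group and replicate; red above and blue below the mean). Ppp1r3c is lowest in WT CITCO replicates 1 and 2, Slc2a2 is blue in all 3 hCAR/hPXR libraries, and the acute phase sum is highest in hCAR/hPXR replicate 1.

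Across the 12 libraries the members did not rise and fall as 1 block. The pair most alike in log2 CPM was G6pc and Ppp1r3c, with a Pearson r of 0.717 over 12 libraries and 0.601 after the group means were taken out. Pck1 and Fbp1 ran in opposite directions (r -0.543), and Pck1 and G6pc, although both gluconeogenic, had an r of 0.321. Leaving out the 2 libraries farthest from the median of G6pc, its r with Ppp1r3c was 0.692. These are descriptions over libraries that share groups and, between genes, a depth.

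Of all genes tested, those whose log2 CPM was most like Slc2a2 were Hadh (r 0.904), Hlf (0.904) and Xpc (0.889). Hlf, a transcription factor under clock control, belongs to the circadian list above and in hCAR/hPXR against Car KO/hPXR mice had a log2 fold change of -0.72 that was not called (edgeR adjusted p = 0.179). Within groups the r of Slc2a2 was 0.728 with Hlf, 0.596 with Hadh and 0.463 with Xpc. For G6pc they were Apoa5 (0.927), Timm10 (0.874) and Brpf3 (0.857), and for Ppp1r3c they were Sirt5 (0.889), Prr13 (0.883) and Pmf1 (0.882). The most similar genes of the others were F11r for Pck1 (0.875), Gpx4 for Fbp1 (0.874), Arhgef19 for Pcx (0.874), Slc29a3 for Pklr (0.885), Slc26a2 for Gys2 (0.879) and Eefsec for Pygl (0.909). With 8594 genes to choose from and 12 libraries, high values of r are easily found.

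The wider glucose list holds 97 genes of 6 roles, the 9 genes included, and 81 of them were tested. Between WT CITCO and WT corn oil 0 were called, between hCAR/hPXR and WT CITCO 1 was higher, between Car KO/hPXR and WT CITCO 0 were called, and in hCAR/hPXR against Car KO/hPXR 2 were lower. At an unadjusted p under 0.05 there were 14, 12, 16 and 14 of 81, beside 9.13%, 8.81%, 9.30% and 10.6% of all genes. Of all genes 0.233%, 0.407%, 0.256% and 0.582% were called. In hCAR/hPXR against Car KO/hPXR mice 52 of 81 were lower, where 48.5% of all genes were, with a median log2 fold change of -0.15. Among the 13 gluconeogenic genes 12 were lower there, with a median of -0.23 and 0 called. Against WT CITCO, 36 of 81 and 6 of 13 were lower in hCAR/hPXR mice, and 26 of 81 and 3 of 13 in Car KO/hPXR mice. In WT CITCO against WT corn oil 48 of 81 and 11 of 13 were lower.

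The gene called between hCAR/hPXR and WT CITCO was Igfbp1, a secreted binding protein whose liver expression insulin represses. It was at 210.4, 193 and 314 CPM in hCAR/hPXR mice and at 27.2, 19.4 and 61.9 CPM in WT mice given CITCO. The log2 fold change was 2.72 ± 0.37 (edgeR adjusted p = 0.000783) and it was called in each of the alternative fits and without each of the 6 libraries in turn. WT mice given corn oil had 116, 97.3 and 93.0 CPM and the Car KO/hPXR mice 47.7, 117 and 139 CPM, so Igfbp1 was lowest in the same group as Ppp1r3c. G6pc, which insulin also represses, had its lowest mean, 50.8 CPM, in the hCAR/hPXR group, whose libraries overlapped those of WT CITCO (mean 59.4 CPM). The part of insulin in these values was not tested.

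The other gene called was Pdk1, a kinase that switches off pyruvate dehydrogenase. It was at 25.4, 36.4 and 31.7 CPM in hCAR/hPXR and at 65.4, 68.5 and 60.0 CPM in Car KO/hPXR libraries, with the WT libraries between 34.4 and 53.5 CPM. The log2 fold change was -1.05 ± 0.21 (edgeR adjusted p = 0.0242). The call was lost without any 1 of hCAR/hPXR replicates 1 and 3 and Car KO/hPXR replicates 1, 2 and 3 (adjusted p = 0.0623 to 0.125).

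By role, the genes outside the 9 with the smallest p in the test of any difference among the 4 groups add further values. Khk, the ketohexokinase that starts fructose use, passed that test (edgeR adjusted p = 0.0477) and was at 1027, 733 and 924 CPM in Car KO/hPXR libraries, with 479 to 638 CPM in the other 9. Ppp1r3b, the liver's main glycogen-targeting subunit, was at 48.6 CPM on average with CITCO and 103 CPM with corn oil in WT mice, a log2 fold change of -1.07 ± 0.28 in the direction of Ppp1r3c that was not called (edgeR adjusted p = 0.164). Gbe1, the branching enzyme, had 0.49 ± 0.17 in Car KO/hPXR over WT CITCO (0.333).

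Sds, which feeds serine into gluconeogenesis, was at 51.2 CPM in WT mice given CITCO and 103 CPM in Car KO/hPXR mice on average (log2 fold change 1.01 ± 0.28, edgeR adjusted p = 0.169). Gpd1, glycerol 3-phosphate dehydrogenase, was at 217 CPM in hCAR/hPXR and 326 CPM in WT mice given CITCO, without a call by the same test (-0.59 ± 0.16, 0.184). Trib3, a pseudokinase that binds Akt, was at 5.79 CPM with CITCO and 23.0 CPM with corn oil in WT mice, without a call (-2.02 ± 0.57, 0.202). The transcription factor Cebpb was at 51.2 CPM in hCAR/hPXR and 23.9 CPM in WT mice given CITCO (1.11 ± 0.31, 0.184).

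In glycolysis, Pfkl, liver phosphofructokinase, had 10 to 36 counts a library and a log2 fold change of -1.03 ± 0.44 in WT CITCO against corn oil (edgeR adjusted p = 0.479). Dlat, a subunit of the pyruvate dehydrogenase complex, had 0.75 ± 0.28 in Car KO/hPXR over WT CITCO (0.361), and Mpc1, a subunit of the mitochondrial pyruvate carrier, had 0.40 ± 0.21 in WT CITCO over corn oil (0.597). Slc2a9, a urate and hexose transporter, had -0.39 ± 0.26 in hCAR/hPXR against Car KO/hPXR (0.641), and Slc2a1, the transporter GLUT1, was at 12 counts or fewer in every library.

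**Figure D4:**
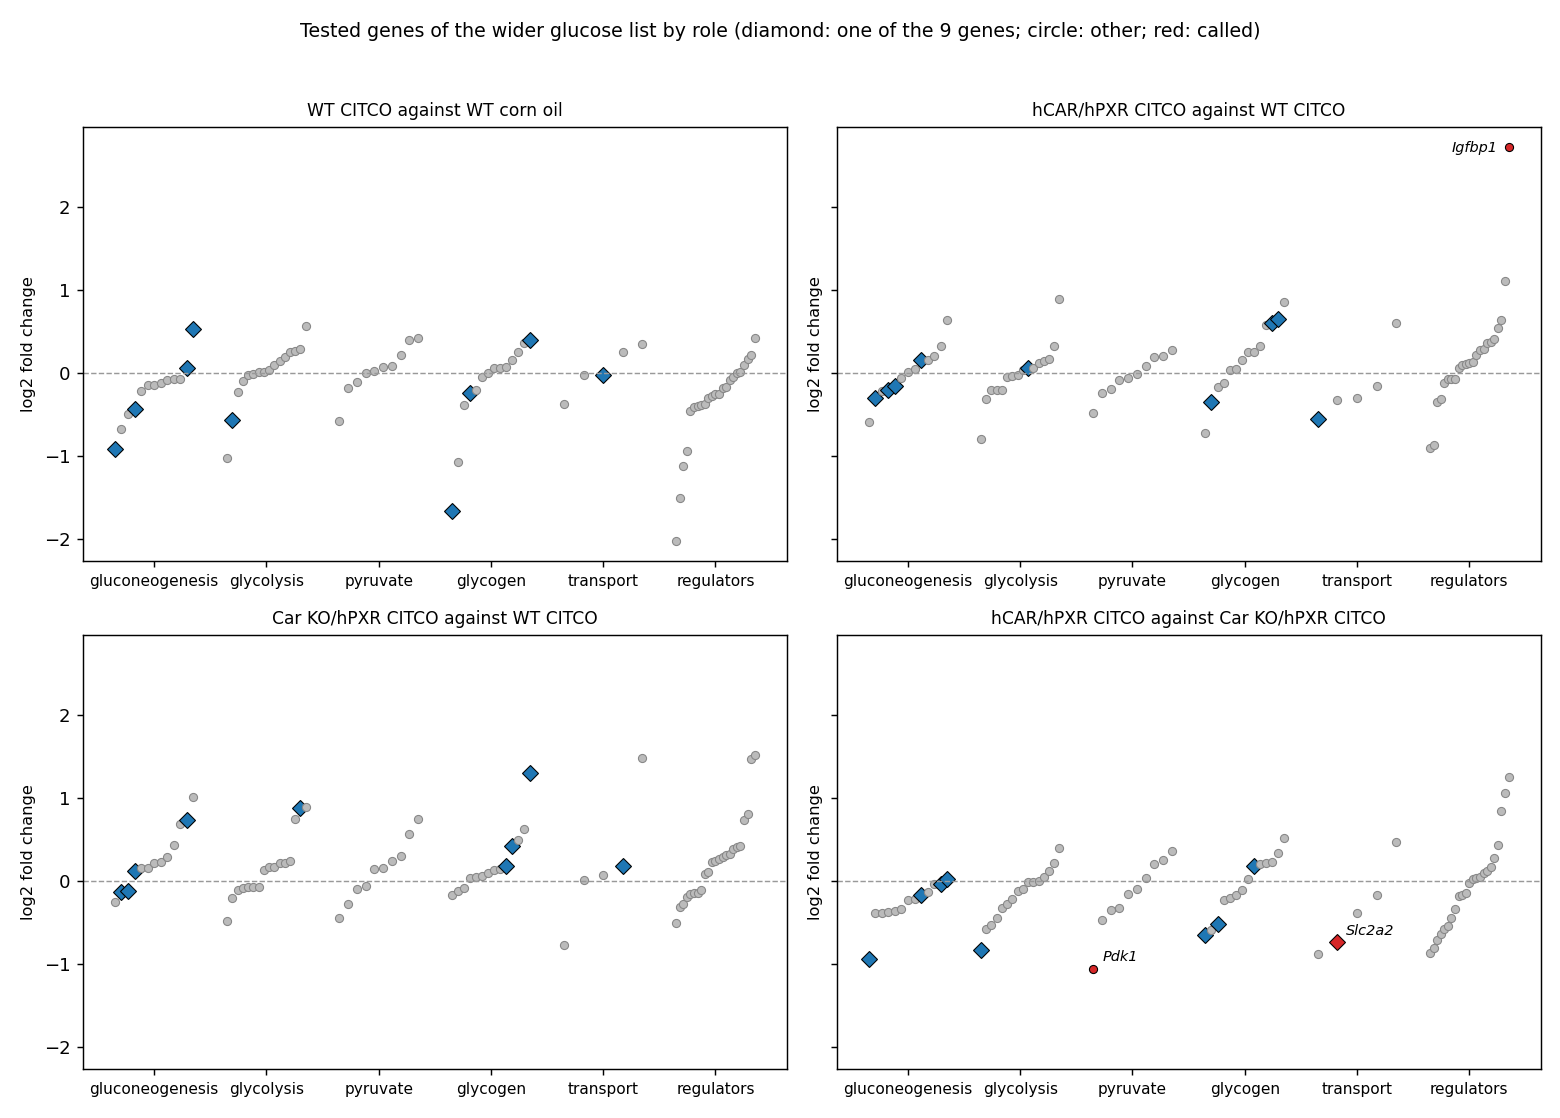
Log2 fold change of the 81 tested genes of the wider list, by role and in order of value within a role, in the 4 comparisons; diamonds are the 9 genes, circles the others, red is called. Igfbp1 (2.72) is the called gene in hCAR/hPXR against WT CITCO, and Pdk1 (-1.05) and Slc2a2 (-0.73) in hCAR/hPXR against Car KO/hPXR.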

How the data were processed

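The authors trimmed reads with Trimmomatic, aligned them with STAR 2.5.2 to Ensembl GRCm38 and deposited expected counts per gene, estimated with RSEM 1.3 and not normalised, for 51912 genes. A second deposited table gives 17859 genes after DESeq2's variance stabilisation, in log2-like units. Groups were taken from the sample labels. Expected counts, 9.34% of which were not whole in detected genes, were rounded, filtered (edgeR's filter, minimum count 10), TMM-scaled and given to the quasi-likelihood test, all 12 libraries in 1 fit with a mean per group, in R 4.3.3 with edgeR 4.0.16. DESeq2 1.42.0 and limma 3.58.1 on the deposited log2-like values were alternatives. Log2 CPM used a prior count of 2. SE was the log2 fold change divided by the root of F. There were 0 pairs of identical libraries, and chi-square per gene between libraries was 4.46 or more, above sampling noise.

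The 9 genes, the lists and the alternatives were chosen with earlier results of these data known. Named genes are the 9, genes of the wider list that were called, the 2 others per role with the smallest p among the 4 groups, the 3 most similar genes per member, Nr1i2, Nr1i3 and Cyp2b10. Called genes of the circadian and acute phase lists and Hlf were named after their values were seen. Periportal, pericentral, endothelial, stellate and red blood cell lists had 0 called genes in the 4 comparisons, with unadjusted p under 0.05 for at most 3 genes of a list, and 0 of 4 pancreas markers passed the filter. Nr1i2 (PXR) was at or below 1.27 CPM in humanised mice. Library totals are in the report; with 9 to 7043 counts behind a member's value, precision differed between members. Positions are from GENCODE M21, another release on the authors' build. Of the steps, the edgeR fit and its calls were tested on simulated data.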

Additional observations from a re-analysis of the deposited data

How the results depend on the processing

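Of 36 results (9 genes in 4 comparisons), 19 kept direction and side of the threshold under every alternative, 6 crossed the threshold under some and 11, none of them called, turned direction when a library was left out. Without the filter on low counts, 179, 184, 227 and 233 genes were called in WT CITCO against corn oil, hCAR/hPXR against WT CITCO, Car KO/hPXR against WT CITCO and hCAR/hPXR against Car KO/hPXR, and 540 among the 4 groups. Of the 9 genes these held 2, 0, 2, 2 and 4: G6pc and Ppp1r3c, then Pklr and Ppp1r3c, then G6pc and Slc2a2, and all 4 among the groups. DESeq2 called 45, 65, 69 and 99 genes and 225 among the 4 groups, with 1 and 2 of the 9 in WT CITCO against corn oil and among the groups. With only the groups compared, 40 genes were called in Car KO/hPXR against WT CITCO, and 0 of the 9 in hCAR/hPXR against Car KO/hPXR.

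Leaving out a library gave 6 to 54, 17 to 32, 5 to 58, 10 to 58 and, among the groups, 60 to 160 genes, and 0 to 1, 0 to 0, 0 to 1, 0 to 1 and 0 to 1 of the 9. The counts moved by over 1.5 times in WT CITCO against corn oil without corn oil replicates 2 (7) and 3 (6) or WT CITCO replicates 1 (7), 2 (7) and 3 (54); in hCAR/hPXR against WT CITCO without WT CITCO replicates 1 (17) and 2 (23) or hCAR/hPXR replicate 3 (20); in Car KO/hPXR against WT CITCO without WT CITCO replicates 1 (5), 2 (6) and 3 (58) or Car KO/hPXR replicates 1 (14) and 3 (10); in hCAR/hPXR against Car KO/hPXR without hCAR/hPXR replicates 1 (23) and 3 (19) or Car KO/hPXR replicates 1 (19) and 3 (10); and among the groups without corn oil replicate 2 (70), WT CITCO replicate 1 (74) or hCAR/hPXR replicates 1 (60) and 3 (76). The cause was not tested. The log2 fold changes that turned ran from -0.12 to 0.20 (Pcx) and -0.11 to 0.0902 (Slc2a2) in WT CITCO against corn oil. They ran from -0.42 to 0.18 (G6pc), -0.12 to 0.36 (Pck1), -0.31 to 0.014 (Pcx) and -0.40 to 0.40 (Pklr) in hCAR/hPXR against WT CITCO. In Car KO/hPXR against WT CITCO they ran from -0.0838 to 0.36 (Pck1) and -0.27 to 0.0462 (Pcx), and in hCAR/hPXR against Car KO/hPXR from -0.24 to 0.24 (Pck1), -0.18 to 0.10 (Pcx) and -0.22 to 0.42 (Pygl).

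The r of deviations from group means was -0.0568 to 0.075 in 18 same-numbered pairs and -0.116 to 0.136 in pairs with different numbers. These values showed no pairing by replicate number, and a weak pairing could go unseen in them. With the replicate number as a block, 20, 33, 24 and 53 genes and 108 among the groups were called, with 0, 0, 0, 1 and 0 of the 9, and Slc2a2 stayed called (adjusted p = 0.0344, edgeR). The replicate block changed no other call of the 9 genes. With 3 libraries a group, intervals of Ppp1r3c and Pklr, the members with the lowest counts (9 and 14), were the widest.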
